A study of Mus musculus with 6 samples.

Results

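The genes described here are the vitamin D receptor gene Vdr and 3 genes of intestinal calcium absorption, S100g, Trpv6 and Atp2b1, which were taken by symbol from a table of gene expression. Of these 4 genes, 3 were found by that rule among the 21397 genes of the table, and all 3 reached the mean level set for testing. Trpv6, the gene of the apical calcium channel, was not analysed here. The table holds 6 RNA-seq libraries of mouse small intestinal organoids, 3 cultured with MMK-1 and 3 with the vehicle, 0.1% DMSO (Control), for 5 days. MMK-1 is a synthetic peptide agonist of formyl peptide receptor 2 (FPR2). All organoids were derived from Fpr2f/f mice, which carry floxed Fpr2 alleles and for which no Cre is named, so both groups share the genotype. Per the study's text each sample pools organoids of 3 mice, and the groups therefore hold 3 pools each rather than single animals. The dose was 1 μmol/L in the protocol text and in the study's methods, whereas the label for treatment reads 1 mmol/L in these samples. Organoids contain the epithelium only, without the immune and stromal cells of the intestine.

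Vitamin D acts through VDR, a nuclear receptor that binds its active form, 1,25-dihydroxyvitamin D, pairs with a retinoid X receptor (RXR) and controls genes of calcium transport. In the enterocyte, calcium enters through the brush-border channel TRPV6, is bound and carried across the cell by calbindin-D9k, which S100g encodes, and leaves at the basolateral side through the calcium pump PMCA1, which Atp2b1 encodes. S100g and Trpv6 are textbook targets of vitamin D in the duodenum, the segment in which this route is most active.

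The stretches before the start sites of S100g and Vdr are shown because these genes are the described target and its receptor, and both were lower with MMK-1. They are the 250 bases upstream of the RefSeq start site in GRCm38.p6, printed 5′ to 3′ on the strand of the gene. The S100g window lies at chrX:162964600-162964849 on the minus strand, and capitals mark the letters AGGTCA and GGTTCA on either strand, the half-sites that VDR and other nuclear receptors bind. The Vdr window lies at chr15:97908297-97908546 on the minus strand, and capitals mark the letters GGGCGG, the GC box.
S100g: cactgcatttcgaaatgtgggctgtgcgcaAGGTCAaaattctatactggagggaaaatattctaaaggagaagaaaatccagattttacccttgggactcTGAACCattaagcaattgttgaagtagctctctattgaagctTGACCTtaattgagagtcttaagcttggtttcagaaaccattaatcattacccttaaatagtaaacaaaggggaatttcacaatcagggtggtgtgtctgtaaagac
Vdr: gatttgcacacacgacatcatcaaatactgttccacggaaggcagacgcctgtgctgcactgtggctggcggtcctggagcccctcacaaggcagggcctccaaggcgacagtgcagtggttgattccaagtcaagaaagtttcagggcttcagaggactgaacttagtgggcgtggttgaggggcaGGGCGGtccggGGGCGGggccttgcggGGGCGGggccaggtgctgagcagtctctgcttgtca
The S100g window was AT-rich, with a GC content of 38.4% and 2 CpG dinucleotides, against medians of 52.4% and 6 over 32851 windows of the same length. Relative to the start site, it held AGGTCA on the strand of the gene from -220 to -215 and on the opposite strand from -107 to -102. It also held GGTTCA on the opposite strand from -149 to -144. AGGTCA was present in 14% of all windows on either strand, and GGTTCA in 8.85%. Direct repeats of these half-sites with 3 bases between them, searched as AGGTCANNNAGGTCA, GGTTCANNNGGTTCA, AGGTCANNNGGTTCA and GGTTCANNNAGGTCA, were not in the windows of the 3 genes and were in at most 0.00609% of all windows for each of the 4 arrangements. The Vdr window had a GC content of 61.2% and 11 CpG dinucleotides, and it held GGGCGG 3 times, a motif present in 32.7% of all windows. Both RefSeq windows of Atp2b1 were richer still, with GC contents of 78.4% and 80.8%, and held GGGCGG 4 and 3 times. TTTATG, a site of the intestinal CDX factors, was in none of these windows and in 10.8% of all. The search covers letters only, and no binding was measured in these samples.

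Libraries held 35512739 to 37537463 fragments, as computed from the table, in which each value is the number of fragments divided by the length of the gene and the size of the library (FPKM). MMK-1 replicate 3 stood apart from the other MMK-1 libraries along the second principal component, which held 4.48% of the variance, while the first, with 92.4%, separated the groups. The test was limma-trend, run on log2(FPKM + 1) of the 10551 genes whose mean FPKM reached 1, with Benjamini-Hochberg adjustment over all of them. The values are log2 fold changes of MMK-1 minus Control on that scale, which understates changes of low genes. MMK-1 moved much of the transcriptome, since 73.2% of genes tested had an adjusted p of at most 0.05, 48.5% as higher and 24.7% as lower genes. The groups did not overlap in 76.8% of genes tested. A change of at least 2-fold, with p of at most 0.05, was reached by 3.39% as higher and 3.65% as lower genes. Over all genes tested the log2 fold change had a median of 0.13, which was 0.0061 after median-of-ratios scaling of the libraries, so small rises must be read against it. This scaling also moved the split of calls at an adjusted p of at most 0.05 from 5118 higher and 2606 lower genes to 3792 and 3828.

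Of the 3 genes analysed, S100g and Vdr were lower and Atp2b1 was higher with MMK-1, and limma gave each an adjusted p under the threshold. As 73.2% of all genes tested were called by this rule and 76.8% had groups that did not overlap, 3 of 3 is near the background. S100g alone passed the 2-fold threshold, which 7.04% of genes tested passed in either direction. The exact two-sided permutation p was 0.1 for each gene, the smallest that 3 libraries against 3 can give. Each call held in 13 of 13 alternative fits.

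Calbindin-D9k transcripts changed most. S100g (NCBI gene 12309, chrX:162961992-162964599 of GRCm38) had FPKM values of 185, 177 and 205 in Control organoids and 18.1, 22.3 and 24.4 after MMK-1. The lowest Control library was thus far above the highest MMK-1 library, and the groups did not overlap. The mean fell from 189 ± 14.7 (SD, n = 3) to 21.6 ± 3.19 (SD, n = 3), to 11.4% of the Control mean, or 8.75-fold lower. On the log2 scale the fold change was -3.08 (standard error 0.0998, 95% confidence interval -3.31 to -2.85, adjusted p = 3.7e-08 in the limma test). This was the 6th largest fall among the 10551 genes tested. In FPKM rank among all listed genes, S100g went from place 352 in Control to place 2983 with MMK-1, on the gene length the authors used. The values rest on 3324, 3183 and 3681 fragments in Control and on 309, 384 and 435 with MMK-1, if the transcript has its annotated length of 480 bases. S100g lies inside the span of Ctps2 on the opposite strand, and whether counting used strand is not given in the sources used here. No exon bases are shared, with 0 of 480 in Ctps2 exons, and Ctps2, a CTP synthase gene, had a mean of only 1.64 FPKM in Control and 2.14 with MMK-1.

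Vdr fell far less. Its FPKM values (NCBI gene 22337, chr15:97854427-97908296) were 107, 103 and 104 in Control and 73.2, 77.9 and 81.4 with MMK-1. All MMK-1 libraries lay below all Control libraries. The means were 105 ± 1.82 (SD, n = 3) and 77.5 ± 4.10 (SD, n = 3), so that 74.0% of the Control level was left. The log2 fold change was -0.43 (standard error 0.0465, 95% confidence interval -0.54 to -0.33, adjusted p = 4.2e-05 in the limma test). With 11319 to 17415 fragments per library, Vdr was at place 640 of the listed genes in Control and at 829 with MMK-1. Its span overlaps the lncRNA genes Gm33690 and Gm52171, which were not analysed here.

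Atp2b1 moved in the opposite direction. The PMCA1 gene (NCBI gene 67972, chr10:98914630-99026143) had FPKM values of 20.7, 21.1 and 20.7 in Control and 29.2, 28.9 and 23.9 with MMK-1. Its groups did not overlap, and MMK-1 replicate 3, the library that stood apart, was the one closest to Control. The mean rose from 20.8 ± 0.221 (SD, n = 3) to 27.3 ± 2.99 (SD, n = 3), 131% of Control. The log2 fold change was 0.37 (standard error 0.0728, 95% confidence interval 0.21 to 0.54, adjusted p = 0.0016 in the limma test). It was 0.46 without MMK-1 replicate 3, and 0.23 after median-of-ratios scaling (adjusted p = 0.032 in the limma test), which brings the median of all genes near 0. Fragments numbered 6335 to 6477 in Control and 7265 to 8508 with MMK-1.

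**Figure D1:**
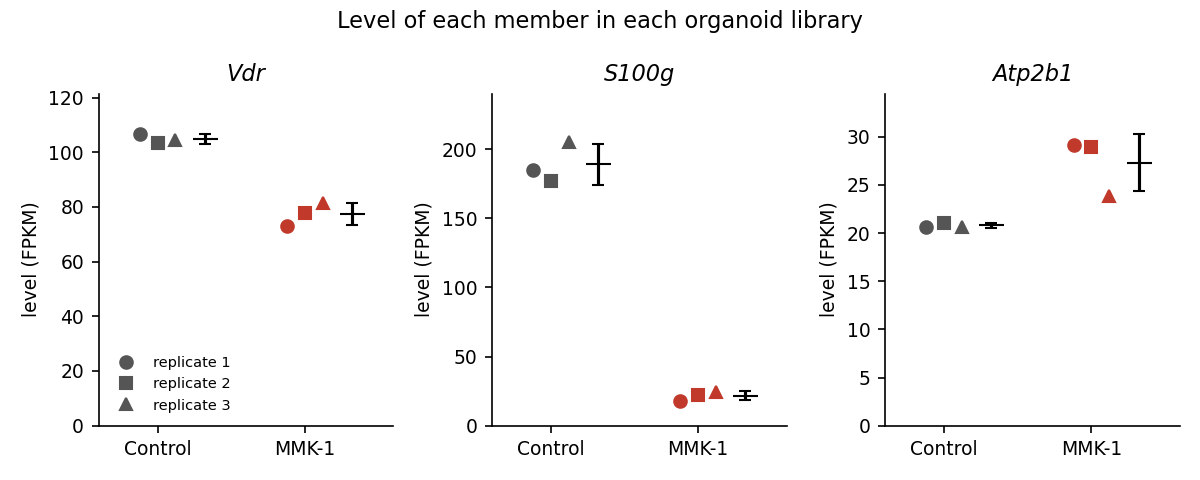
FPKM of Vdr, S100g and Atp2b1 in each library (grey, Control; red, MMK-1; circles, squares and triangles are replicates 1, 2 and 3), with mean and SD (n = 3) as bars and a separate linear axis from 0 for each gene. S100g lies at 177 to 205 in Control and at 18.1 to 24.4 with MMK-1, Vdr shifts down from 103 to 107 to 73.2 to 81.4, and Atp2b1 shifts up, least in replicate 3.

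In Control organoids the order of the levels was S100g, Vdr and Atp2b1, at 189, 105 and 20.8 FPKM, where the place of S100g depends on the gene length behind its FPKM. With MMK-1 it was Vdr, Atp2b1 and S100g, at 77.5, 27.3 and 21.6 FPKM. In MMK-1 replicate 3 the levels of S100g and Atp2b1 were close, at 24.4 and 23.9 FPKM, so these neighbours were not separated in every library. S100g fell relative to Vdr as well as to Atp2b1. S100g per Vdr, as a ratio of FPKM within a library, was 1.80 ± 0.141 (SD, n = 3) in Control and 0.278 ± 0.0270 (SD, n = 3) with MMK-1. S100g per Atp2b1 was 9.09 ± 0.774 (SD, n = 3) and 0.805 ± 0.203 (SD, n = 3). Groups did not overlap in either ratio (exact two-sided permutation p = 0.1 for each, the smallest possible).

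The rest of the vitamin D system was examined in a list of 19 genes, Vdr included, of which 17 were analysed and 13 reached the filter. Apart from Vdr, 5 of 12 were higher, 6 were lower and 1 did not pass, where 48.5% of all genes were higher and 24.7% lower. The median log2 fold change was -0.05 against 0.13 over all genes tested. Among the partners of VDR, Rxra fell from 26.8 to 23.5 FPKM, a log2 fold change of -0.18 (adjusted p = 0.0054 in the limma test). For Rxrb, the other RXR gene analysed, values were 14.8 to 16.1 FPKM in Control and 15.5 to 17.3 with MMK-1, which overlap, and the log2 fold change of 0.09 did not pass (adjusted p = 0.20 in the limma test) and turned to -0.053 after median-of-ratios scaling. Coregulators recruited by nuclear receptors in general were higher in 5 of 5, where 48.5% of all genes were higher, and in 4 of 5 after upper-quartile or median-of-ratios scaling. The coactivator gene Ncoa1 rose by 0.54 and Ncoa3 by 0.45 on the log2 scale, and the corepressor gene Ncor1 rose by 0.47. These are genes of many nuclear receptors and not of VDR alone.

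Genes that make, break down or take up vitamin D metabolites were under the filter except for 2 of those analysed, and Lrp2, the gene of the uptake receptor megalin, was not analysed here. Cyp24a1, whose enzyme degrades active vitamin D and which is a classic VDR target, had 0 fragments in the 3 Control libraries and in MMK-1 replicates 1 and 2, and 1 fragment in replicate 3. A count of 0 allows up to 3 fragments in a library of this depth. Cyp27b1, the gene of the activating 1α-hydroxylase, had 2, 7 and 7 fragments in Control and 13, 7 and 6 with MMK-1, and Cyp2r1, a 25-hydroxylase gene, had at most 12 fragments in any library. Cyp27a1, which encodes a mitochondrial sterol 27-hydroxylase that can also 25-hydroxylate vitamin D, was the first exception and had 2.49, 2.11 and 2.30 FPKM in Control and 0.517, 0.441 and 0.371 with MMK-1. Its groups lay wide apart, and its log2 fold change was -1.19 (adjusted p = 1.1e-06 in the limma test). This change was -2.15 with a pseudocount of 0.1 and -2.38 with limma-voom on fragments. Cubn, whose product cubilin takes up vitamin B12 with intrinsic factor in the ileum and vitamin D bound to its carrier in the kidney, fell from 18.8 to 3.01 FPKM, a log2 fold change of -2.31 (adjusted p = 6.7e-09 in the limma test).

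Other genes described as vitamin D targets in the intestine were lower in 3 of 3, where 24.7% of all genes were lower. Enterocyte markers, described below, were lower in 14 of 16. Their median log2 fold change was -0.95, beside -0.96 for these 3 genes. Cyp3a11, a cytochrome P450 gene that several xenobiotic and nuclear receptors control, had FPKM values of 1019, 1010 and 1011 in Control and 263, 271 and 256 with MMK-1. The groups lay far apart, the MMK-1 mean being 26% of the Control mean, and the log2 fold change was -1.94 (adjusted p = 2.5e-09 in the limma test). Slc34a2, the brush-border sodium-phosphate cotransporter gene, fell from 22.1 to 10.9 FPKM, by 0.96 on the log2 scale. Slc30a10, a manganese exporter gene, fell by 0.46.

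Calcium handling was followed in 41 listed genes, of which 35 were analysed and 23 tested. Leaving out S100g and Atp2b1, 11 of 21 were higher, 5 were lower and 5 did not pass, where 48.5% of all genes were higher and 24.7% lower. The median log2 fold change was 0.12, close to the 0.13 of all genes. Median-of-ratios scaling gave 9 higher and 8 lower. For the apical side no entry channel gene was tested. Trpv6 and Trpv5 were not analysed here, and Cacna1d, a voltage-gated channel gene, had at most 15 fragments per library. Partners that bind or carry TRPV6 were lower in 3 of 4, where 24.7% of all genes were lower. Nherf4 (listed as Pdzd3), a PDZ scaffold gene, had 30.3, 31.4 and 31.9 FPKM in Control and 16.2, 15.3 and 17.7 with MMK-1. Its groups did not overlap, and the log2 fold change was -0.89 (adjusted p = 1.7e-06 in the limma test). Anxa2 and S100a10, whose products form the annexin A2 complex, fell by 0.46 and 0.14 on the log2 scale, and Rab11a, of recycling endosomes, did not pass (0.03, and -0.12 after median-of-ratios scaling).

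Calb1, the gene of the larger calbindin-D28k of the kidney and a relative in function of S100g, was at 0 fragments in 5 of 6 libraries and had 1 in MMK-1 replicate 1.

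At the basolateral side, Atp2b1 had the highest level of the 3 plasma membrane calcium pump genes analysed, and the remaining one, Atp2b2, was not analysed here. Atp2b4 had 10, 8 and 14 fragments in Control and 40, 23 and 38 with MMK-1, or 0.0309 and 0.101 FPKM on average. Though higher with MMK-1 in every library, it stayed far below the 20.8 and 27.3 FPKM of Atp2b1. In the fit over every gene above 0, in which 43.3% of 20676 genes were called, its log2 fold change was 0.09 (adjusted p = 0.011 in the limma test). That scale shrinks changes at such low levels, and the value was 0.61 with a pseudocount of 0.1 and 1.66 with limma-voom on fragments. Atp2b3 had at most 3 fragments, and the sodium-calcium exchanger gene Slc8a1 had 28 to 50 in each library, with overlapping groups.

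Of 10 tested genes of the intracellular calcium store, which encode pumps, release channels and parts of store-operated entry, 7 were higher, 0 were lower and 3 did not pass, where 48.5% of all genes were higher. After median-of-ratios scaling 6 were higher and 2 were lower, where 3792 of 10551 genes were higher. Atp2c2, a secretory pathway calcium pump gene, had 1.06, 1.17 and 1.68 FPKM in Control and 5.94, 6.25 and 7.48 with MMK-1. Every MMK-1 library exceeded every Control library several-fold, with a log2 fold change of 1.72 (adjusted p = 1.8e-06 in the limma test). Orai2, a subunit of store-operated channels, rose from 2.71 to 6.07 FPKM, by 0.93 on the log2 scale. The sarco-endoplasmic pump gene Atp2a2 rose by 0.41 and Itpr3, an inositol trisphosphate receptor gene, by 0.52. Stc2, which encodes the secreted glycoprotein stanniocalcin 2, rose from 9.73 to 34.7 FPKM, with a log2 fold change of 1.74 (adjusted p = 2.5e-07 in the limma test). Of the claudin genes of the paracellular calcium route, Cldn12 rose by 0.43, Cldn2 passed with 0.12, just under the median of all genes, and Cldn15 did not pass, with -0.0036. After median-of-ratios scaling Cldn2 did not pass (-0.03) and Cldn15 passed as lower (-0.15).

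**Figure D2:**
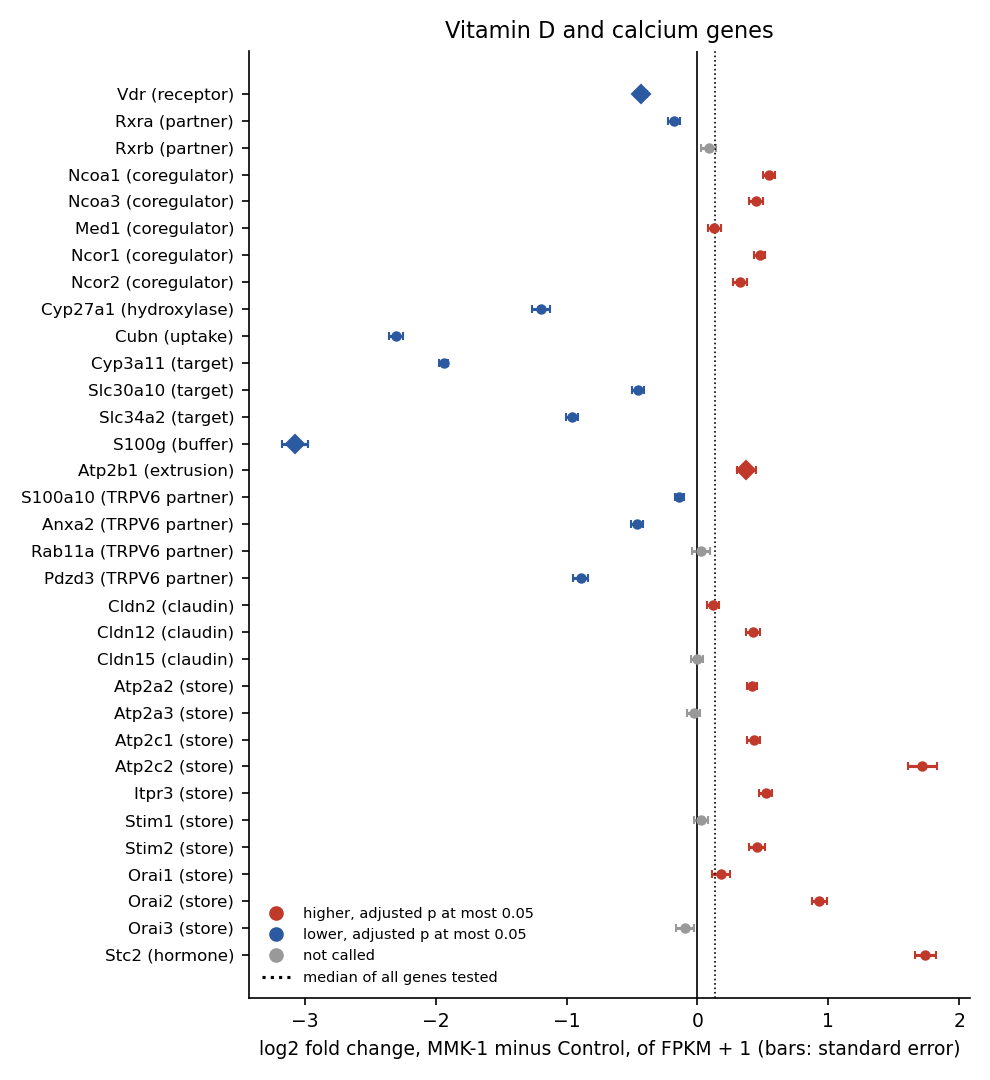
Log2 fold change of MMK-1 minus Control on the log2(FPKM + 1) scale for tested vitamin D and calcium genes, S100g standing alone for the cytosolic binders, with standard errors as bars (3 libraries per group). Diamonds are Vdr, S100g and Atp2b1, colours give the call at an adjusted p of at most 0.05, and the dotted line is the median of all genes tested, 0.13. S100g at -3.08 lies farthest left, Cubn and Cyp3a11 follow, and most store genes lie to the right of 0.

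Of 5 tested magnesium and phosphate transport genes, 2 were higher, 2 were lower and 1 did not pass, where 48.5% of all genes were higher and 24.7% lower. After upper-quartile or median-of-ratios scaling, 1 was higher and 3 were lower. Slc20a1, a phosphate transporter gene of the type III family, rose from 18.3 to 29.6 FPKM, by 0.67 on the log2 scale, in the opposite direction to Slc34a2. For its relative Slc20a2 the log2 fold change was -0.10 (adjusted p = 0.17 in the limma test), but it passed as lower with upper-quartile scaling (-0.18), with median-of-ratios scaling (-0.24) and without MMK-1 replicate 3 (-0.16). Trpm7, a magnesium and calcium channel gene, had 14.8 FPKM in MMK-1 replicate 1 but 10.7 in replicate 3, next to the 9.58 to 10.5 of Control. Its log2 fold change of 0.33 (adjusted p = 0.017 in the limma test) lost significance in 7 alternative fits. Cnnm4, the basolateral magnesium exporter gene, fell by 0.21.

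Calbindin-D9k belongs to the S100 family of EF-hand proteins, and S100g was compared with its relatives. Of 16 listed genes 15 were analysed and 8 tested. Besides S100g, 3 of 7 were higher, 3 were lower and 1 did not pass, the same counts as after each other scaling, where 73.2% of all genes were called in either direction. S100a10 had the highest level, at 242 FPKM in Control and 220 with MMK-1. S100a13 was the family member with the next larger fall, from 5.99 to 2.90 FPKM, a log2 fold change of -0.85, and S100a1 fell by 0.32. S100a11 rose by 0.88 on the log2 scale, from 14.4 to 27.1 FPKM, and S100a14 by 0.92, from 2.90 to 6.43 FPKM. S100pbp, which encodes a protein that binds S100P and is no S100 protein, rose by 0.46. Of the summed FPKM of the list without S100pbp, S100g made up 38.8% ± 1.79 (SD, n = 3) in Control and 7.06% ± 0.827 (SD, n = 3) with MMK-1.

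**Figure D3:**
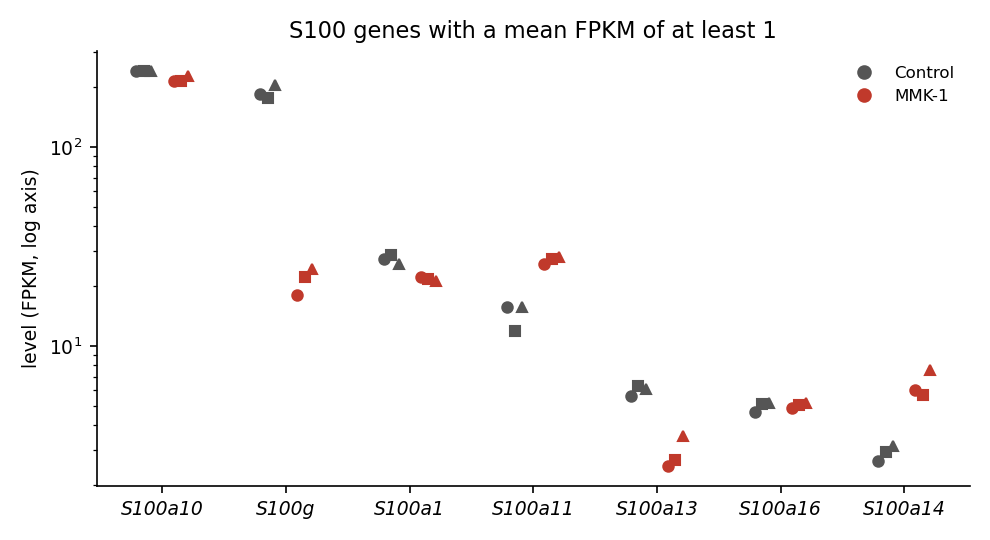
FPKM on a log axis of the tested S100 genes in each library (grey, Control; red, MMK-1; circles, squares and triangles are replicates 1, 2 and 3). S100g drops from 177 to 205 down to 18.1 to 24.4, S100a10 lies at 215 to 243 in all 6 libraries, and S100a11 and S100a14 lie higher with MMK-1.

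Calcium is absorbed by enterocytes, and markers of that cell type also differed between the groups. All 16 enterocyte markers of the list were tested, of which 14 were lower and 2, Fabp1 and Slc2a5, were higher with MMK-1, where 24.7% of all genes were lower and 48.5% higher. Fabp1 did not pass after upper-quartile (0.09) or median-of-ratios (0.03) scaling. Their median log2 fold change was -0.95, and their summed FPKM was 10703 to 10794 in Control and 5917 to 6335 with MMK-1. The stem cell markers Lgr5, Olfm4, Ascl2 and Smoc2 were all higher, with a summed FPKM of 40.4 to 40.7 in Control and 289 to 304 with MMK-1. In bulk libraries, fewer enterocytes and less RNA of a gene per enterocyte cannot be told apart. The part of this shift in the results for S100g, Vdr, Atp2b1 and the listed vitamin D and calcium genes was not tested. S100g fell more than 15 of the 16 markers, the exception being the peptide transporter gene Slc15a1, whereas 13 markers fell more than Vdr.

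Members were also set against Vil1, the gene of the brush-border protein villin, which itself fell from 566 to 245 FPKM. Any gene that fell less than Vil1, or rose, is higher in such a ratio. The outcome also depends on the marker. S100g fell 8.75-fold and Vil1 2.31-fold, while Slc5a1 fell 1.35-fold, Anpep 7.25-fold and Slc15a1 13.5-fold. S100g was at 33.4% ± 2.88 (SD, n = 3) of Vil1 in Control and at 8.80% ± 0.953 (SD, n = 3) with MMK-1, 3.80-fold lower. Vdr was at 18.5% ± 0.278 (SD, n = 3) of Vil1 in Control and at 31.6% ± 0.461 (SD, n = 3) with MMK-1. Atp2b1 was at 3.68% ± 0.0482 (SD, n = 3) and 11.2% ± 1.67 (SD, n = 3). Against the sum of the enterocyte markers, set here to 1000, S100g was likewise lower (17.6 in Control and 3.54 with MMK-1), and Vdr (9.75 and 12.7) and Atp2b1 (1.94 and 4.50) were higher. The sum is weighted by level, and Fabp1, which rose from 2218 to 2506 FPKM, is its highest gene in both groups. Groups did not overlap in any of these 6 ratios (exact two-sided permutation p = 0.1 for each, the smallest possible). The share of all genes with such a difference was not computed.

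**Figure D4:**
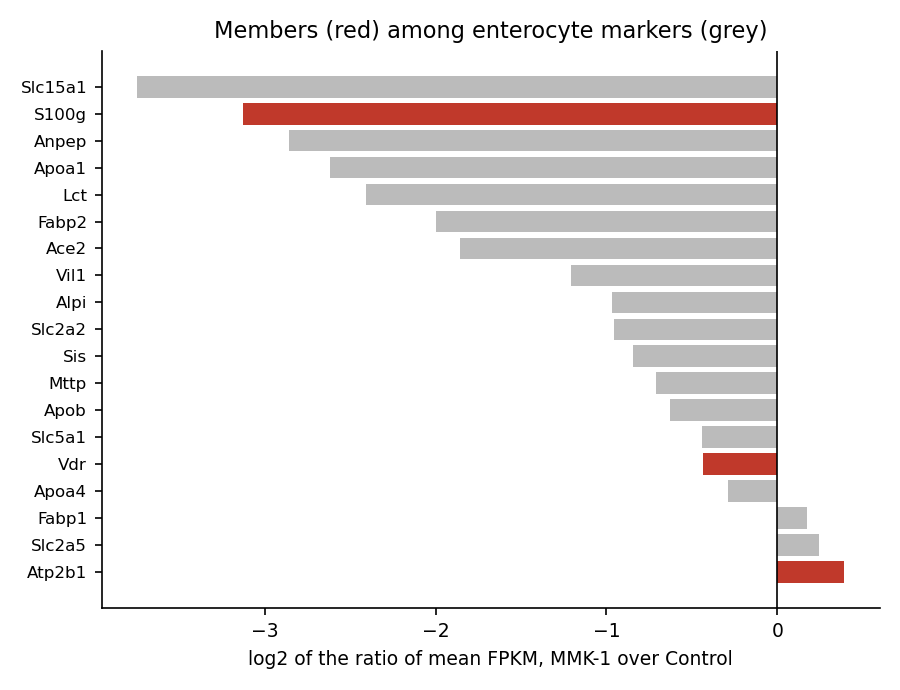
Log2 ratio of mean FPKM, MMK-1 over Control, of S100g, Vdr and Atp2b1 (red) among 16 enterocyte markers (grey), without a pseudocount, from 3 libraries per group. S100g is second to Slc15a1, Vdr lies among the markers with small falls, and Atp2b1 is the highest of the bars to the right of 0.

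**Figure D5:**
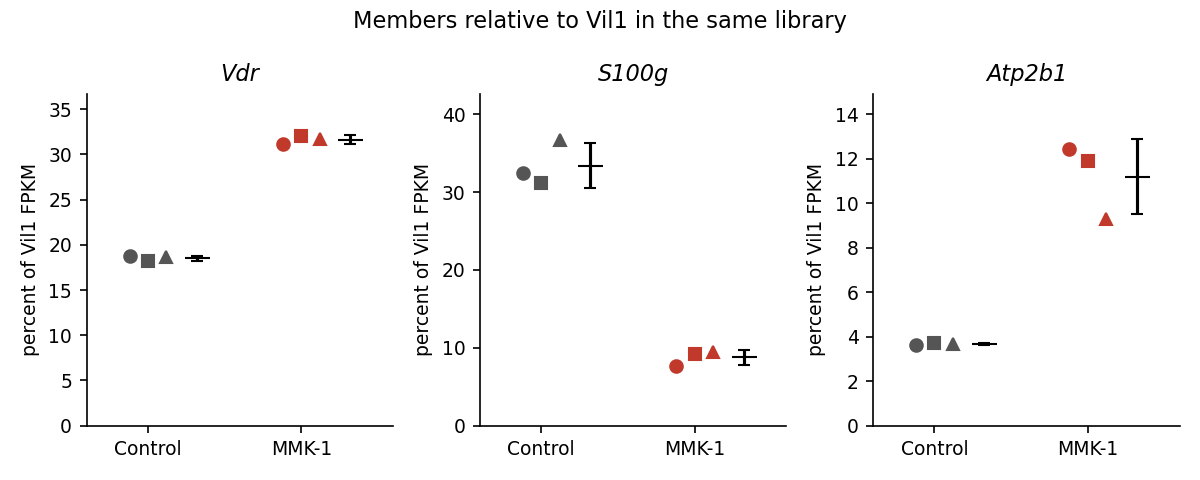
Vdr, S100g and Atp2b1 as percent of the FPKM of Vil1 in the same library (grey, Control; red, MMK-1; circles, squares and triangles are replicates 1, 2 and 3), with mean and SD (n = 3) as bars and a separate axis from 0 for each gene. S100g falls from 33.4% to 8.80%, and Vdr and Atp2b1 rise to 31.6% and 11.2%, where Vil1 itself fell from 566 to 245 FPKM.

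The markers bear on the label of the organoids too. Of 5 epithelial markers, 2 were higher (Cdh1 by 0.17 and Krt18 by 0.44 on the log2 scale), 2 were lower, and Epcam did not pass (-0.0044). Of all genes tested, 48.5% were higher and 24.7% lower. After median-of-ratios scaling Cdh1 did not pass (0.02) and Epcam passed as lower (-0.15). Krt8 fell by 0.30 and Krt20, a keratin gene of differentiated epithelial cells, fell by 1.52. Of 11 immune and stromal markers 0 reached an FPKM of 1, and their sum was 0.324 to 0.459 in Control and 0.203 to 0.531 with MMK-1. Among them Csf1r, a receptor gene of macrophages singled out after its values were seen, had 20, 23 and 23 fragments in Control and 0, 1 and 2 with MMK-1, while Ptprc, shared by leukocytes, had at most 3 in any library. The labels call the organoids small intestinal and the study's text describes ileal crypts. Gata4, a transcription factor gene of the proximal small intestine, had 42.9 FPKM in Control and 49.4 with MMK-1 (log2 fold change 0.20, adjusted p = 0.0062 in the limma test), a rise that did not pass after median-of-ratios scaling (0.05). The ileal bile acid genes Fabp6 and Slc10a2 had 4.96 and 6.03 FPKM in Control and 0.915 and 4.54 with MMK-1, and both passed the test as lower. Of the other proximal genes, Onecut2 had 1.47 and 2.75 FPKM. It passed as higher (log2 fold change 0.60), also after median-of-ratios scaling (0.50). Pdx1 was under the filter, at 0.264 and 0.360 FPKM.

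Genes whose profile was most like each member were found by the Euclidean distance between log2(FPKM + 1) values over the 6 libraries, each minus the Control mean. For S100g these were Reg3a (0.138), which encodes a secreted antimicrobial lectin, the retinal dehydrogenase gene Aldh1a1 (0.297) and the carboxylesterase gene Ces1f (0.300). Reg3a went from 172 to 19.9 FPKM, where S100g went from 189 to 21.6. The nearest to Vdr were Vti1b (0.0270), Aimp1 (0.0291) and Araf (0.0296), and to Atp2b1 Golga7 (0.0489), Sowahc (0.0671) and Wsb1 (0.0673). Likeness here means a similar difference between the groups and a similar spread within them over 6 libraries.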

How the data were processed

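RNA-seq libraries of 3 Control and 3 MMK-1 samples of mouse small intestinal organoids were analysed, grouped by their treatment labels. The authors deposited FPKM values per gene, without further scaling stated. The submitters' processing notes name HISAT2, HTSeq, R 3.2.0, DESeq2 and mm10. The strand setting of counting is not given in the sources used here. Whole fragments were computed from the steps of the FPKM values of each gene, and 99.7% of the fragments of each library lay on listed genes. For S100g the steps gave a length of 160 bases, which divides the 480 bases of its sole GENCODE vM21 transcript, and the latter was used, so its fragments depend on that annotation and its level relative to other genes on the length behind the deposited FPKM, while the ratio of its group means does not. Fragment numbers cover counting error only.

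limma 3.58.1 (limma-trend, R 4.3.3) was applied to log2(FPKM + 1) of genes whose mean FPKM reached 1, and was tested on simulated data. Exact permutation tests were two-sided. As samples may not be independent cultures, p-values measure the spread between these samples. Genes were matched by symbol or NCBI number, with coordinates and overlapping genes from RefSeq on GRCm38. Transcript lengths and the exon overlap of S100g come from GENCODE vM21. Named were the 4 genes of the rule, their relatives (RXR and PMCA genes), listed genes with a called change of at least 2-fold, otherwise the 3 largest changes in each direction per list, and the 3 genes nearest to each member. Other genes of the lists are named as examples chosen after their values were seen, and so were the ratios to Vil1, to the enterocyte sum and between members. A result for a listed calcium gene is not reported here, though the list's counts include it. Members and lists were chosen with earlier results of these data known. Alternatives covered scaling, filter, pseudocount, replicate block, leaving out each replicate, limma-voom on fragments and the fold threshold. Other steps used Python 3.11.15, numpy 2.4.6, pandas 2.3.3, matplotlib 3.10.9 and scipy 1.17.1.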

Additional observations from a re-analysis of the deposited data

How the results depend on the processing

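The calls of Vdr (-0.58 to -0.39 on the log2 scale), S100g (-3.22 to -2.96) and Atp2b1 (0.23 to 0.46) held under all 13 alternatives, with an adjusted p of at most 0.00056, 2.0e-05 and 0.032 in the limma fits. Leaving out 1 replicate at a time, the log2 fold change was -0.47 to -0.39 for Vdr, -3.17 to -2.96 for S100g and 0.32 to 0.46 for Atp2b1. Same-numbered samples did not deviate together (correlations of 0.025, -0.040 and 0.028), so the numbers were not taken as pairs. With a replicate block, the log2 fold changes were -0.43 for Vdr (adjusted p = 0.00019 in limma), -3.08 for S100g (adjusted p = 1.4e-07) and 0.37 for Atp2b1 (adjusted p = 0.0015), and the block changed the count of calls by adjusted p from 5118 and 2606 to 5024 higher and 2543 lower genes and the count at 2-fold from 358 and 385 to 359 and 385. Leaving out replicates gave 4702 to 5186 higher and 2365 to 2947 lower genes by adjusted p, and 336 to 434 and 369 to 393 at 2-fold. At 2-fold, median-of-ratios scaling gave 230 higher genes and a pseudocount of 0.1 gave 676. limma-voom on fragments gave 1751 higher and 1147 lower, dropping the filter with the pseudocount at 0.1 (added once the data had been seen) 1097 and 818, and a 1.5-fold threshold 1502 and 855. The sign of Rxrb reversed to -0.053 under median-of-ratios scaling. The cause of these shifts was not tested. Of the 25 other genes under the naming rule, 291 of 302 alternative values kept their call and sign. At this depth Cyp24a1, Cyp27b1, Calb1 and Atp2b3 had too few fragments for a statement on change.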
